A study of Mus musculus with 38 samples.

Results

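The bulk RNA time course of mouse embryonic fibroblasts (MEFs) given full-length SALL4 (SALL4-WT) and no other factor is described here. Its 4 libraries, of 38 samples in the series, were chosen by their labels, and the libraries of days 5, 9 and 11 were each compared with that of day 1 over all genes of the deposited table except short RNAs, 34515 genes in all. In all groups the MEFs came from embryos at embryonic day 13.5, taken without regard to sex, offspring of OG2 males, which carry an Oct4-driven GFP reporter, and 129S4/SvJaeJ females, and factors were delivered by pMXs retrovirus. They were then kept in iCD3, a defined medium with vitamin C, LIF, bFGF, Y27632, an LSD1 inhibitor, the GSK3 inhibitor CHIR99021 and the DOT1L inhibitor SGC0946, with no BMP4. Other groups stand beside it in the same table. SALL4-delN12, the form without the N-terminal residues that contact the NuRD complex, was given alone in the same medium and sampled on the same 4 days. JGES cells received the 4 factors Jdp2, Glis1, Esrrb and Sall4 and were kept in iCD3 without BMP4, and their day 0, 1 and 5 libraries are used. Infection took place in serum medium before the change to iCD3, and the medium of the day 0 library is not stated. Every library is a whole culture, in which cells that responded and cells that did not were sequenced as a mixture, so fewer cells of a type and less RNA per cell cannot be told apart.

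SALL4 is a zinc-finger transcription factor of the early embryo and of embryonic stem cells. Through its N-terminus it binds NuRD, a complex that removes histone acetyl groups and remodels nucleosomes, and it represses many of the genes it binds. Fibroblasts are defined by matrix, surface and mesenchymal transcription factor genes. Primitive endoderm (PrE), the extraembryonic layer that forms yolk sac endoderm, is defined by Gata4, Gata6, Sox17 and laminin genes. The study put forward that SALL4 on its own might lead cells to PrE. On day 11 it reported colonies stained for both GATA4 and LAMA1 with either form alone, and more GATA4-positive colonies with SALL4-delN12. It also reported labelled cells from SALL4-WT colonies in the yolk sac after injection into blastocysts. The share of such cells in the libraries used here is not known.

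Each day is 1 library, so no difference in this report has a replicate check and none has a p-value. The values are FPKM, read fragments scaled to the length of the gene and to the size of the library, and the depth behind them is not known. A change is a difference of log2(FPKM + 1), which understates the change of genes with low values. A gene was counted as higher or lower when that difference was 1 or more in size, among genes with an FPKM of 1 or more in either library. No RNA library of MEFs with an empty vector in iCD3 is used here, so time in the medium and SALL4 cannot be told apart.

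Sall4 RNA was high on every day. It was 549 FPKM on day 1, 491 on day 5, 518 on day 9 and 290.3 on day 11, a change of -0.92 from day 1 to day 11. In the SALL4-delN12 course it was 809 on day 1 and 428 on day 11, also a change of -0.92. The delivered and the cell's own gene were not separated. The labelled cell type was present on day 1, when 19 of the 20 fibroblast surface and matrix genes were at 1 FPKM or more and none was listed at 0. Between 11869 and 12709 genes reached 1 FPKM in the 4 SALL4-WT libraries, and the 10 most abundant genes held 10.2% of the summed FPKM on day 1 and 19.4% on day 11.

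The day 1 library, the base of every comparison, differed from the other library of that day. Against SALL4-delN12 day 1, 642 of 12410 genes (5.17%) were higher in SALL4-WT day 1 and 485 (3.91%) were lower. The interferon-stimulated genes summed to 1650.7 FPKM in SALL4-WT day 1 and 290.9 in SALL4-delN12 day 1, and the inflammatory secreted genes to 2848.8 and 646.4. The fibroblast surface and matrix genes stood the other way round, at 1942.8 and 3264.7. Several results that rest on this library are therefore also given against SALL4-delN12 day 1.

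The number of genes that differed from day 1 grew with each day sampled. Of 12753 genes, 733 (5.75%) were higher and 474 (3.72%) lower on day 5, with a median change of 0.01 over all genes. On day 9, 965 of 12848 genes (7.51%) were higher and 767 (5.97%) lower. On day 11, 1454 of 13246 genes (11%) were higher and 1097 (8.28%) lower, with a median of 0.04. These shares of all genes are the background for the counts of list members below. The steps between later days were smaller. From day 5 to day 9, 191 genes (1.50%) were higher and 114 (0.896%) lower, and from day 9 to day 11, 253 (1.94%) were higher and 208 (1.60%) lower. The difference between the day 1 libraries of both SALL4 forms was thus about as large as the change from day 1 to day 5, and far larger than either later step.

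**Figure D1:**
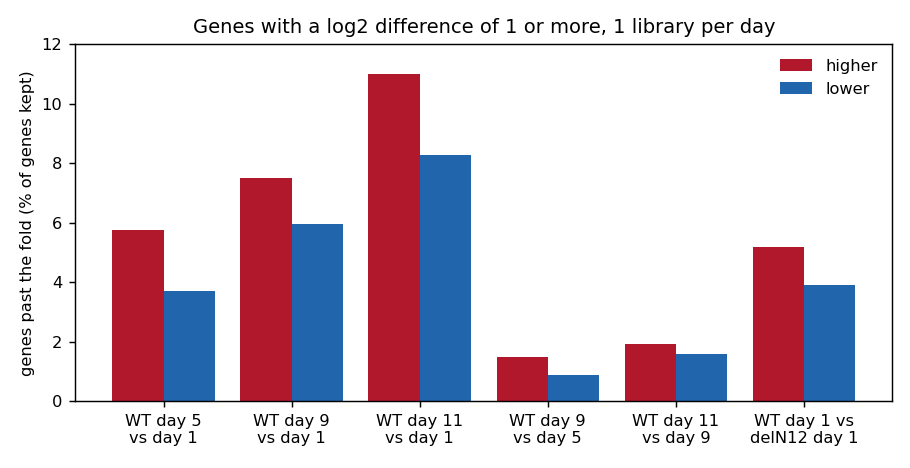
Genes past a log2(FPKM + 1) difference of 1, as a percent of genes kept (y axis), for 6 comparisons (x axis), with higher genes in red and lower genes in blue and 1 library per day. The bars grow from day 5 to day 11 against day 1, the steps between later days stay under 2%, and the 2 day 1 libraries differ by 5.17% and 3.91%.

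With SALL4-delN12 day 1 as the base instead, the genes lower in SALL4-WT were the less stable set. Of the 733 genes higher on day 5, 487 (66.4%) were also past the fold against that library, and of the 1454 higher on day 11, 1028 (70.7%) were. For the lower genes the shares were 154 of 474 (32.5%) on day 5 and 655 of 1097 (59.7%) on day 11. By gene list the split was sharp on day 11. All 15 mitosis genes, 14 of 15 replication genes, 7 of 7 macrophage genes and 12 of 12 complement and kinin genes past the fold, 11 of them higher and 1 lower, were also past it with the other base. None of 7 interferon-stimulated genes and none of 8 antigen presentation genes was, and 5 of those 7 interferon-stimulated genes and 1 of those 8 antigen presentation genes, Psmb8, were past the fold in the opposite direction.

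Among the genes with the largest increases were peptide hormones. Ins2, which encodes insulin (chr7:142678656-142679726, mm10), was listed at 0 on day 1 and stood at 10.3 FPKM on day 5, 44.0 on day 9 and 79.9 on day 11. Cck, the gene of cholecystokinin, was at 0.639, 12.9, 73.6 and 60.7 FPKM on the same days. Pyy, encoding the gut peptide YY, was listed at 0 on day 1 and reached 0.455, 5.90 and 30.1 FPKM. Ins2 and Pyy were higher on each later day than on the day before, while Cck peaked on day 9. Of the 20 peptide hormone genes in the list, which was chosen after its values were seen, 17 were below 1 FPKM on day 1 and 14 on day 11. In the SALL4-delN12 course Ins2 was at 0.387 FPKM on day 1 and 0.58 on day 11. In the JGES day 0 library, however, it was at 42.6 FPKM. Pyy reached a similar level with SALL4-delN12, from 3.94 FPKM on day 1 to 33.6 on day 11.

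A second set encoded blood-plasma proteins of the complement and kinin systems. Masp1, a protease that starts the lectin pathway of complement, was at 0.339 FPKM on day 1, 23.7 on day 5, 42.9 on day 9 and 66.8 on day 11, a change of 5.66. Kng2 was at 1.79, 44.0, 65.6 and 94.9 FPKM, and its near copy Kng1 at 1.53, 20.8, 39.9 and 73.8. Both encode kininogen, the precursor of bradykinin, and reads may have been shared between them, so the split between the copies is uncertain. The 3 genes lie on the same chromosome, at chr16:22985852-23029101 (Kng2), chr16:23058220-23082078 (Kng1) and chr16:23451785-23521240 (Masp1) in mm10. Serping1, the C1 inhibitor, was higher as well, at 71.3, 203, 288 and 377 FPKM. C1ra, a protease of the C1 complex, was at 2.95, 8.35, 16.2 and 34.1. Each of these 5 genes was higher on every later day than on the day before. Of the 18 genes in the list, which was chosen after its values were seen, 10 were below 1 FPKM on day 1 and 3 on day 11. The 1 lower gene on day 11 was Cfp, properdin, at 8.25, 4.66, 2.47 and 3.45 FPKM.

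Secreted inhibitors of BMP and WNT signalling formed another group of higher genes. Grem1, which binds BMPs outside the cell, was at 3.22 FPKM on day 1, 27.1 on day 5, 59.6 on day 9 and 81.2 on day 11. Wif1, a WNT-binding inhibitor, was at 0.344, 13.4, 13.3 and 19.1, and Dkk2, which acts on WNT co-receptors, at 1.80, 11.6, 15.5 and 17.7. Of the 15 genes of this list, also chosen after its values were seen, 5 were below 1 FPKM on day 1 and 1 on day 11. The 1 lower gene was Sfrp2, a secreted frizzled-related protein, at 314, 115, 57.9 and 60.1 FPKM. Its day 1 level in SALL4-delN12 was only 12.3, and against that library Sfrp2 was higher on all 3 later days. Bambi, a decoy receptor of the BMP and TGF-beta family, was at 2.17 FPKM on day 1 and between 8.95 and 9.79 afterwards. It was the 1 BMP target gene of 6 past the fold on each day, but against SALL4-delN12 day 1 its differences were 0.25, 0.24 and 0.35, within the fold. The list as a whole had a day 11 median of -0.09, but against SALL4-delN12 day 1 its medians were 1.53, 1.59 and 1.06, with 4, 4 and 3 of the 6 genes higher and none lower on days 5, 9 and 11.

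Early and late patterns could be seen among the most increased genes. Alpl (tissue-nonspecific alkaline phosphatase), Hey1 (a repressor in the Notch pathway) and Cygb (cytoglobin) were at their highest on day 5. Alpl was at 0.957, 38.4, 30.0 and 33.9 FPKM, Hey1 at 0.585, 32.2, 14.3 and 13.0, and Cygb at 0.247, 26.7, 19.9 and 16.2. Crym, encoding mu-crystallin, followed the same course at 9.72, 192, 127 and 95.2, and so did Nefh, a neurofilament gene, at 0.241, 23.1, 7.06 and 4.71. Ccl8, a chemokine, kept increasing, at 10.6, 67.7, 366 and 506 FPKM. Prl2c2 (proliferin) was at 0.859, 9.75, 61.9 and 56.4, a value that is uncertain because near-identical copies of the gene exist. Akr1c18, which inactivates progesterone, was at 0.587, 5.49, 33.2 and 27.2. These late genes had reached most of their day 11 level by day 9.

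**Figure D2:**
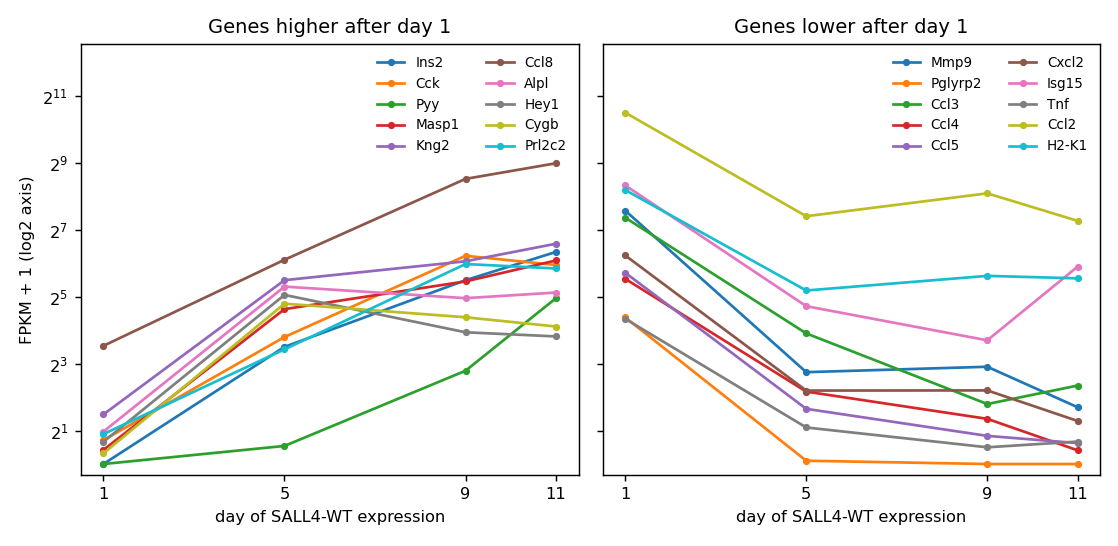
FPKM + 1 (y axis, log2 axis) by day of SALL4-WT expression (x axis) for 10 genes that were higher (left) and 10 that were lower (right) after day 1, each point being 1 library. Alpl, Hey1 and Cygb are highest on day 5, Ccl8 reaches 506 FPKM on day 11, and most of the lower genes are far below day 1 on day 5, with Isg15 coming back from 11.96 on day 9 to 58.8 on day 11.

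Fibroblast identity genes were kept and many stood higher than on day 1. Of the 20 surface and matrix genes, 9 were higher and 1 lower on day 5 (5.75% and 3.72% of all genes), 10 and 0 on day 9 (7.51% and 5.97%), and 13 and 1 on day 11 (11% and 8.28%), with medians of 0.92, 1.03 and 1.08. Pdgfra, the receptor that marks mesenchyme, was at 4.48, 25.4, 32.1 and 36.5 FPKM. Col3a1, a fibrillar collagen, was at 14.3, 51.4, 73.8 and 93.9, and Fn1, fibronectin, at 467, 756, 895 and 958. Lum (lumican) was at 1.73, 11.3, 24.5 and 23.6, and Dcn (decorin) at 3.88, 8.61, 16.0 and 20.9. All 5 were above their day 1 level in every later library. The lower gene was Loxl1, a lysyl oxidase, at 91.3 FPKM on day 1 and 30.8 on day 11. Thy1, a fibroblast surface protein, was at 15.6, 66.7, 56.8 and 63.4 FPKM, but its level in SALL4-delN12 day 1 was 74.3, and against that library its differences were -0.15, -0.38 and -0.22, within the fold. Col6a3 was at 21.2 FPKM on day 1 and 44.7 on day 11, but at 117 in SALL4-delN12 day 1, with differences of -0.72, -0.77 and -1.37 from that library. Of the 13 genes higher on day 11, 10 were also past the fold against SALL4-delN12 day 1.

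Mesenchymal transcription factors were not lost. Of 12 that could be compared on day 11, 2 were higher and 1 lower, and the median change was 0.01. Snai2, a repressor of epithelial genes, was at 12.5, 84.7, 56.9 and 71.1 FPKM. Twist1, a basic helix-loop-helix factor of mesenchyme, was at 47.0, 118, 123 and 114. Its relative Twist2 was the lower one, at 149, 111, 135 and 71.6. In the JGES course, over the matched interval from day 1 to day 5, Thy1 went from 31.5 to 1.81 FPKM and Pdgfra from 41.3 to 13.6, while Snai2 went from 4.68 to 12.2. Thy1 and Pdgfra thus moved in opposite directions over these days with SALL4 alone and with all 4 factors, a difference that was not tested. For Thy1 this depends on the base, since its day 5 difference from SALL4-delN12 day 1 was -0.15.

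A few contractile genes were lower than on day 1. Tagln (transgelin), a smooth-muscle actin-binding protein, was at 144 FPKM on day 1, 15.1 on day 5, 24.2 on day 9 and 25.7 on day 11. Acta2, the smooth-muscle actin, was at 53.6, 17.7, 18.8 and 36.0. Both had their lowest value on day 5. Of 14 contractile and YAP target genes, 3 were lower on days 5 and 9 and 1 on day 11, where 8.28% of all genes were lower. None was higher on any of the days, and the day 11 median was -0.50. With SALL4-delN12 the day 11 median was 0.46. In the JGES day 0 library Tagln was at 1228 FPKM and Acta2 at 983, far above every SALL4-WT library, day 1 included.

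Some epithelial genes appeared without a loss of mesenchymal ones. Cdh1, E-cadherin, was at 0.406, 0.558, 2.52 and 4.14 FPKM, and Epcam, an epithelial adhesion molecule, at 0.499, 0.551, 1.48 and 4.97. Spint1, an epithelial protease inhibitor, was higher already on day 5, at 1.44, 13.2, 14.7 and 10.8. Of the 20 epithelial genes in the list, 10 were below 1 FPKM on day 1 and 5 on day 11. Of the 15 compared on day 11, 8 were higher and none lower, beside 11% and 8.28% of all genes, and some of them passed the filter only through their day 11 level. Krt8, a simple-epithelial keratin, was at 9.79, 11.3, 21.8 and 31.8 in SALL4-WT, but at 141 in SALL4-delN12 day 1. Against that library 4 of the 8 higher genes were past the fold in the same direction and 2 in the opposite one, and over the list 5 of 15 were higher and 6 lower. Epcam reached 38.0 and Cdh1 20.5 FPKM on day 11 with SALL4-delN12, above the SALL4-WT levels.

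With full-length SALL4 the 12 PrE genes summed to 49.7 FPKM on day 1, 55.9 on day 5, 62.7 on day 9 and 72.6 on day 11, and 10 of them were expressed enough to be compared. None was past the fold on day 5, 1 on day 9 and 3 on day 11, where 11% of all genes were higher. The median change on day 11 was 0.80, beside 0.04 for all genes. With a pseudocount of 0.1 in place of 1 the counts were 1, 1 and 5 of 10, the added genes being Eva1a on day 5 (1.06) and Lama1 (1.31) and Chst15 (1.28) on day 11. Gata4, a transcription factor that defines PrE, was at 1.04, 0.811, 0.964 and 1.51 FPKM, and Gata6 at 5.61, 4.26, 4.23 and 5.36. Sox17, the SOX factor of endoderm, was at 0.0238 FPKM on day 1, listed at 0 on days 5 and 9, and at 0.224 on day 11. None of these 3 transcription factors was past the fold on any day with a pseudocount of 1. With a pseudocount of 0.1 the day 11 difference of Sox17 was 1.39, though it was below 1 FPKM on every day. That of Foxa2, another endoderm factor, was 1.86, but it too was below 1 FPKM on days 1 and 11 and not among the 10 genes compared. Higher on day 11 were Pth1r (the parathyroid hormone receptor, from 1.27 to 3.76 FPKM), Cited1 (a transcriptional cofactor, from 0.888 to 3.79) and Eva1a (from 2.26 to 6.05). Of these, Cited1 passed the filter only through its day 11 level. Lama1, a laminin chain of Reichert's membrane, was at 1.30, 1.65, 1.84 and 3.38.

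With SALL4-delN12 11 of the 12 PrE genes were higher on day 11, against a background of 10.1% of all genes, and the list median was 2.58. There Gata4 went from 0.502 to 29.3 FPKM, Sox17 from 0 to 16.2, Lama1 from 1.31 to 50.2 and Cited1 from 3.79 to 140.5. Some members, such as Gata4 and Sox17, passed the filter only through their day 11 level, so they could only count as higher. The list was chosen with earlier results of these data known, so the counts are not independent evidence of a direction. Against the SALL4-delN12 day 1 library, only 1 of the 3 genes higher in SALL4-WT on day 11 was past the fold. Other extraembryonic endoderm genes were mixed. Apoe, a lipid carrier of visceral endoderm and of macrophages, was at 149, 725, 1226 and 1863 FPKM, and Trf (transferrin) at 0.964, 4.24, 18.0 and 30.3. Apoe came to 1869.7 FPKM on day 11 with SALL4-delN12, and Trf to 26.6, so neither separated the forms at that day. Of 21 visceral endoderm genes, 8 could be compared on day 11, with 3 higher and 1 lower, and 14 were below 1 FPKM. On day 1, 17 were below 1 FPKM, so some of those compared passed the filter only through their day 11 level. Among 16 parietal endoderm and basement membrane genes, 2 were higher and none lower.

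Pluripotency genes were mostly at or near 0. Of 20, 16 were below 1 FPKM on day 11 and 8 were listed at 0. Of the 4 that could be compared, 1 was higher. That gene was Fgf4, a growth factor of embryonic stem cells, at 0, 0.0441, 0.174 and 1.60 FPKM, which passed the filter only through its day 11 level. Klf2 was past the fold on days 5 and 9 only, at 1.52, 5.74, 6.78 and 1.68. Esrrb, an orphan nuclear receptor that was not delivered in this course, was at 0.025, 1.85, 1.82 and 2.00 FPKM. Against SALL4-delN12 day 1 its differences were only 0.21, 0.20 and 0.28, while in JGES cells, to which it was delivered, it was between 192 and 479.6. Of 14 germline genes, 12 were below 1 FPKM in each SALL4-WT library, and neither of the 2 that could be compared was past the fold on any day.

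**Figure D3:**
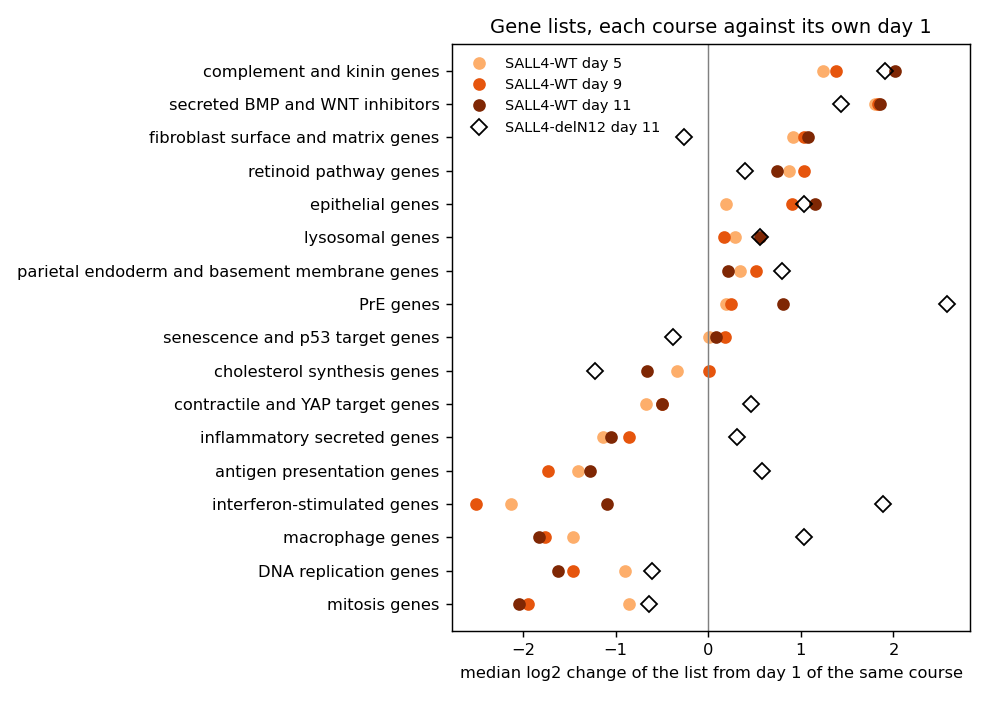
Median log2(FPKM + 1) change of 17 gene lists (x axis) from day 1 of the same course, with SALL4-WT days 5, 9 and 11 as filled circles and SALL4-delN12 day 11 as open diamonds. Complement and inhibitor genes, lists chosen after their values were seen and with members that passed the filter only through day 11, lie between 1.43 and 2.01 on day 11 for both forms, interferon-stimulated and macrophage genes lie on opposite sides of 0 (-1.09 and 1.89, -1.82 and 1.04), and PrE genes are at 0.80 and 2.58. Some PrE genes also passed the filter only through day 11.

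Cell cycle genes were lower on days 9 and 11. Of 15 mitosis genes, 4 were lower on day 5 and all 15 on days 9 and 11, with medians of -0.86, -1.95 and -2.04. Cdk1, the kinase that starts mitosis, was at 30.6 FPKM on day 1, 13.5 on day 5, 6.09 on day 9 and 3.84 on day 11. Its partner Ccnb1 was at 33.9, 16.0, 5.38 and 8.15, and Mki67, the proliferation marker, at 13.7, 7.99, 2.91 and 3.50. All 3 were lower in every later library than on day 1. None of the 4 mitosis genes past the fold on day 5 was so against SALL4-delN12 day 1, where Cdk1 differed by -0.78 and Ccnb1 by -0.64, but all 15 were on days 9 and 11. Replication genes followed. Of 15, 4 were lower on day 5, 9 on day 9 and all 15 on day 11, with a median of -1.63. Mcm5, a subunit of the replicative helicase, was at 26.6, 11.2, 5.47 and 4.21 FPKM, and Pcna, the sliding clamp, at 156, 94.2, 84.0 and 62.3.

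Growth arrest genes did not move as a group. Of 15 senescence and p53 target genes, 1 was higher on each of the 3 days and 1 was lower on day 11. Cdkn2a, the locus of the cell cycle inhibitors p16 and p19, was the higher one, at 75.0, 177, 258 and 282 FPKM. Gdf15, a stress-induced cytokine and p53 target, was the lower one, at 86.4, 73.3, 71.9 and 42.7, but its day 11 difference was -0.98, within the fold, when libraries were scaled to a common median ratio. Myc was at 18.7, 7.74, 8.64 and 6.02, with differences of -0.50, -0.36 and -0.81 against SALL4-delN12 day 1. In the SALL4-delN12 course 6 of 15 mitosis genes were lower on day 9 with a median of -0.96, and 3 on day 11 with a median of -0.65, beside 3.18% and 4.37% of all genes, and Cdkn2a went from 63.2 to 193 FPKM. In the JGES course Cdk1 was at 19.6 FPKM on day 1 and 26.0 on day 5, and Mki67 at 35.6 and 57.7, higher rather than lower on day 5.

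Interferon-stimulated genes had the lowest medians of all lists on days 5 and 9, and part of the difference was gone on day 11. Of 13, 12 were lower on day 5, 13 on day 9 and 7 on day 11, with medians of -2.13, -2.51 and -1.09. Isg15, a ubiquitin-like protein induced by interferon, was at 319.9 FPKM on day 1, 25.3 on day 5, 11.96 on day 9 and 58.8 on day 11. Ifit1, a sensor of foreign RNA, was at 118, 28.3, 13.6 and 70.1, and Irf7, the transcription factor that amplifies the response, at 52.6, 11.2, 8.73 and 30.0. Oasl2 was at 71.8, 11.3, 5.30 and 24.4, Usp18 at 52.5, 9.96, 4.48 and 13.9, and Ifit3 at 59.9, 9.33, 5.29 and 27.6. Each of these 6 genes had its lowest value on day 9. In SALL4-delN12 the list was at 290.9 FPKM summed on day 1 and 897.3 on day 11, with a median change of 1.89. With that day 1 library as the base the SALL4-WT medians turned to 1.26, 0.50 and 1.72, so the direction of this group depends on which day 1 library it is set against. The list summed to 202.8 FPKM in JGES day 1, so SALL4-WT day 1, at 1650.7, was far the highest of the day 1 libraries used here.

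Genes of antigen presentation were lower along with them. H2-K1, a classical MHC class I gene, was at 291, 35.4, 48.2 and 45.8 FPKM, and Psmb8, an immunoproteasome subunit, at 37.0, 3.99, 3.01 and 7.20. Both were still far below their day 1 level on day 11. Of 11 genes, 9 were lower on day 5, 10 on day 9 and 8 on day 11, with a day 11 median of -1.28. The list was chosen after its values were seen. H2-K1 belongs to a family of near-identical genes, so its level is uncertain. Against SALL4-delN12 day 1 none of these was past the fold downwards, and the medians were -0.14, -0.24 and -0.19.

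Chemokines and other inflammatory genes were among the largest decreases. Mmp9, gelatinase B (chr2:164940326-164955850, mm10), was at 189 FPKM on day 1, 5.70 on day 5, 6.50 on day 9 and 2.24 on day 11, a change of -5.88. Ccl3 was at 163, 14.0, 2.46 and 4.08, Ccl4 at 45.3, 3.48, 1.55 and 0.326, and Ccl5 at 51.6, 2.14, 0.791 and 0.541. Cxcl2, a neutrophil chemokine, was at 74.2, 3.58, 3.59 and 1.44. These 5 genes were all at their highest on day 1 by more than a log2 difference of 3. Ccl2, a monocyte chemokine, was at 1448, 168, 271 and 153 FPKM, Tnf at 19.2, 1.13, 0.414 and 0.592, and Pglyrp2, which cleaves bacterial peptidoglycan, at 19.8 and 0.0703 before it was listed at 0 on days 9 and 11. Against SALL4-delN12 day 1 the differences of Ccl2 were -0.51, 0.18 and -0.65 and those of Pglyrp2 -0.31, -0.41 and -0.41, all within the fold. Mmp9 and Ccl5 were also lower late in the SALL4-delN12 course, going from 109 to 5.39 and from 69.5 to 0.53 FPKM between days 1 and 11.

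The 15 inflammatory secreted genes did not all go one way. On day 11, 8 were lower and 5 higher, with a median of -1.05, and the count was 8 and 5 on day 5 as well. Cxcl5, a neutrophil chemokine, was at 5.67, 28.6, 25.9 and 98.0 FPKM, Mmp13, a collagenase, at 5.12, 18.7, 38.6 and 34.2, and Lcn2, which binds bacterial siderophores, at 55.6, 114, 126 and 144. Against SALL4-delN12 day 1 the differences of Lcn2 were only 0.001, 0.14 and 0.33. Cxcl1 was at 148, 45.4, 66.8 and 57.3, yet at only 10.4 in that library. Against it the median of the list was 1.09 on day 5, 1.74 on day 9 and 1.44 on day 11, and of the 8 genes lower on day 11, 1 was past the fold in the same direction and 2 in the opposite one.

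Macrophage genes were present on day 1 and lower afterwards. The 12 genes summed to 456.0 FPKM on day 1, 211.4 on day 5, 179.1 on day 9 and 199.6 on day 11. In the SALL4-delN12 course the sums were 441.7, 530.4, 587.1 and 1216.7, and in the JGES day 0 library 13.8. Of 10 that could be compared, 8 were lower on days 5 and 9 and 7 on day 11, where the median was -1.82, and none of the 12 was listed at 0 on days 1 or 11. Adgre1, which encodes F4/80, was at 16.9, 5.74, 1.78 and 1.84 FPKM, Fcer1g, an Fc receptor chain, at 36.3, 6.50, 2.96 and 2.71, and Cd14, the lipopolysaccharide co-receptor, at 40.7, 7.24, 8.45 and 5.06. C1qa, a complement subunit made by macrophages, was at 16.1, 3.03, 2.43 and 3.88. All 7 genes lower on day 11 were also past the fold against SALL4-delN12 day 1. Several of the inflammatory genes above, such as Ccl3, Ccl4, Tnf, Clec4e and Acod1, are known as macrophage genes. Clec4e was at 15.5 FPKM on day 1 and 0.188 on day 11, and Acod1 at 27.6 and 1.38. The part of macrophages in the decrease of the inflammatory and interferon-stimulated genes was not tested.

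**Figure D4:**
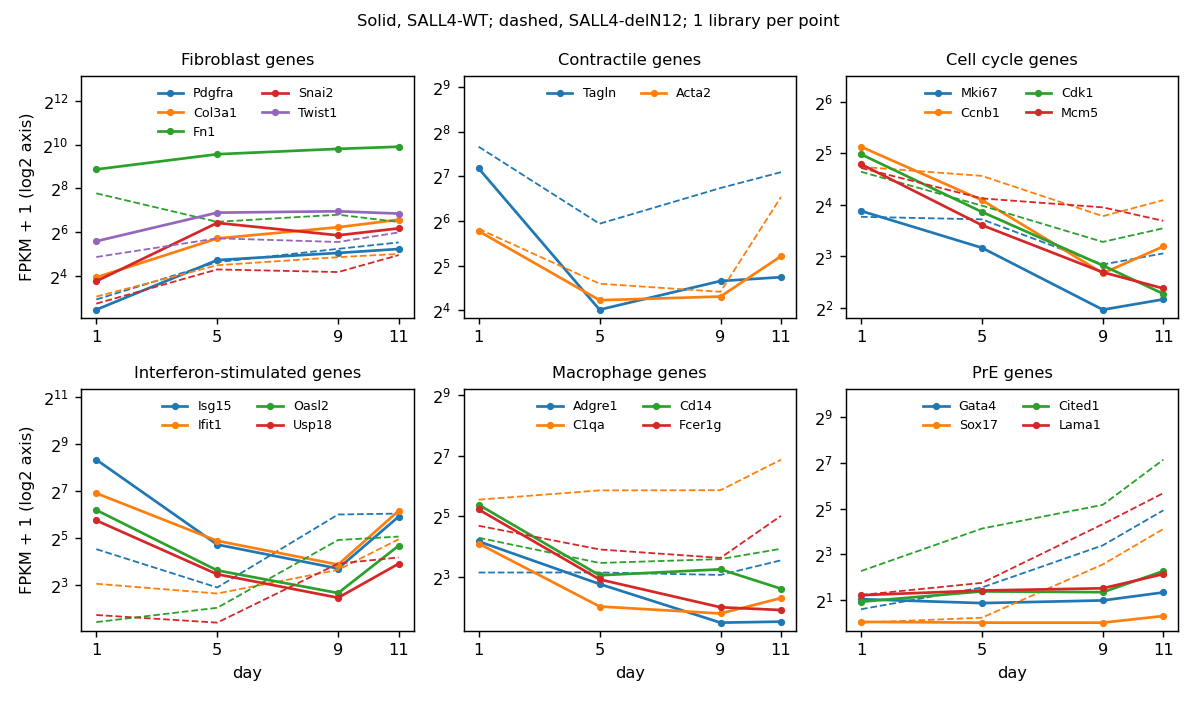
FPKM + 1 (y axes, log2 axes) by day (x axes) for genes of 6 groups, with SALL4-WT as solid lines and points, SALL4-delN12 as dashed lines and 1 library per point. Fibroblast genes are at or above their day 1 level in SALL4-WT, cell cycle genes are lower on each later day than on day 1, the interferon-stimulated genes start higher in SALL4-WT than in SALL4-delN12 and lie nearer to them on day 11, and the PrE genes are high on day 11 in SALL4-delN12 while Gata4 ends at 1.51 FPKM in SALL4-WT.

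Promoter sequence is shown for 3 of these groups, because the genes lower than on day 1 include textbook targets of factors with known binding letters. The lists hold many such known genes, so high shares of these letters describe the lists and are no result of the RNA. No interferon-stimulated gene was past the fold downwards against SALL4-delN12 day 1. Sequences were taken from RefSeq on GRCm38.p6, the assembly behind mm10, and the 250 bases before the start were searched on both strands. The interferon-stimulated response element (ISRE), searched as GAAA and GAAA with any 2 bases between them, was in 6 of the 9 interferon-stimulated genes with a window (66.7%), beside 3.46% of 27025 promoters. The 150 bases before each start are printed in the direction of the gene, with the matches to either strand in capitals, for Isg15 (chr4:156200819-156200968, minus strand), Ifit1 (chr19:34640739-34640888, plus strand) and Rsad2 (chr12:26456453-26456602, minus strand). In Isg15 the 3 matches overlap and the nearest lies 66 bases before the start.
Isg15: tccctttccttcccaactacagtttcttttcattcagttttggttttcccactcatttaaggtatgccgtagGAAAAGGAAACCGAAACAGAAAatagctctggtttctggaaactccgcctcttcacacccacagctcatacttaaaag
Ifit1: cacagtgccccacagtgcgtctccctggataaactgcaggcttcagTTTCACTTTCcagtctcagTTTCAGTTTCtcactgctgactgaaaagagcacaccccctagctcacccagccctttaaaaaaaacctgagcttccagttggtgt
Rsad2: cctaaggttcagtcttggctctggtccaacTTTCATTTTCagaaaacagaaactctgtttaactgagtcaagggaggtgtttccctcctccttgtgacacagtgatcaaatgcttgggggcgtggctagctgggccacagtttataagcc

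The NF-kB letters, GGGA and TTCC with any 2 bases between them, were in 3 of the 12 inflammatory secreted genes with a window (25%), beside 1.36% of all promoters. Other letters were in more of these windows. AP-1 letters (TGA and TCA with any base between them) were in 5 of the 12 (41.7%), beside 7.82%. TATA boxes (TATAAA) were also in 5 (41.7%), beside 14.3%. The 150 bases before the starts of the chemokine genes Cxcl1 (chr5:90891095-90891244) and Cxcl2 (chr5:90903749-90903898), both on the plus strand, hold an almost palindromic copy that matches on both strands, shown in capitals.
Cxcl1: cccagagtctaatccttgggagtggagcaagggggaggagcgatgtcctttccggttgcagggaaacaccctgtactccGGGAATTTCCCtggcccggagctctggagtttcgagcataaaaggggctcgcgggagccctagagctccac
Cxcl2: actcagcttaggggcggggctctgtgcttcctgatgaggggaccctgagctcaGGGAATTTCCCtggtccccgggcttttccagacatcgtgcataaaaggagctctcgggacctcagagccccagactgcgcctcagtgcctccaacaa

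Among mitosis genes the CCAAT box (CCAAT, the letters bound by NF-Y) was in 10 of 12 windows (83.3%) beside 37.5% of all promoters, and the CHR element (TTTGAA, bound by the DREAM complex) in 6 of 12 (50%) beside 18.3%. Cdk1 (chr10:69352913-69353062, minus strand) and Ccnb2 (chr9:70421555-70421704, minus strand) are shown with CCAAT boxes of either strand in capitals. Ccnb2, a mitotic cyclin, was at 26.4, 13.6, 5.39 and 5.64 FPKM. Such matches describe the letters and were not tested as sites.
Cdk1: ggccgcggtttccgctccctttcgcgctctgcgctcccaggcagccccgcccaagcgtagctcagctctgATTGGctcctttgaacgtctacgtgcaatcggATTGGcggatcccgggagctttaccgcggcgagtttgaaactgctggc
Ccnb2: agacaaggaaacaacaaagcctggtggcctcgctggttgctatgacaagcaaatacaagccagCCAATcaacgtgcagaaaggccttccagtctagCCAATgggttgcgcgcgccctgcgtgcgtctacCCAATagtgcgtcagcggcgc

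Over all genes the same letters were less marked. The ISRE was in 8.61% of the 337 genes with a window that were lower on day 5, in 7.89% of the 570 lower on day 9 and in 3.86% of the 829 lower on day 11, beside 2.96% of all genes kept on day 11, the background used for each day. The NF-kB letters were in 4.45%, 2.46% and 2.05% of those lower on days 5, 9 and 11, beside 1.48%. CCAAT boxes were in 38.0% of those lower on day 5, 47.7% of those lower on day 9 and 42.2% of those lower on day 11, beside 40.2%. The CHR element was in 14.8%, 18.6% and 14.7% of those lower on days 5, 9 and 11, beside 12.7%.

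Open chromatin and SALL4 occupancy of the same cells were read from deposited peak lists. ATAC-seq, which maps accessible DNA, covered untreated MEFs and SALL4-WT days 1, 5, 9 and 11, and Cut&Tag, which maps a protein or mark on chromatin, covered SALL4 and the active mark H3K27ac on day 6. Of the 12746 genes kept on day 11 with an annotated start, 79.9% had a SALL4 peak within 2 kb and 79.0% an H3K27ac peak. Of the 1378 genes that were higher on day 11, 64.1% had a SALL4 peak and 52.5% an H3K27ac peak. Of the 1043 lower genes, 72.2% and 68.1% had one. Both day 11 sets thus had a lower share with a peak than all genes kept. For the genes higher on day 5 the SALL4 and H3K27ac shares were 65.7% and 52.1%, and for those lower on day 5 they were 55.3% and 49.6%. On day 9 they were 63.3% and 50.3% for higher genes and 63.7% and 61.1% for lower genes, so the order of the sets was not the same on each day. Expression level was not matched between these sets.

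ATAC peaks at promoters of the higher genes were fewer on day 1 than in MEFs and came back. They were at 86.0% of these genes in MEFs, 74.9% on day 1, 85.8% on day 5, 83.7% on day 9 and 85.8% on day 11. Over all genes kept, the shares were 93.5%, 89.9%, 93.1%, 92.4% and 92.8%. The day 1 ATAC list was also the shortest, with 83821 peaks, against 98422 on day 5, 89245 on day 11 and 125470 in MEFs, and the part of this in the shares was not tested. A promoter peak on day 11 that was in neither MEFs nor day 1 was found at 35 of the higher genes (2.54%), at 8 of the lower genes (0.767%) and at 78 of all genes kept (0.612%). A promoter peak of both MEFs and day 1 that was gone on day 11 was found at 15 higher genes (1.09%), 19 lower genes (1.82%) and 78 of all genes (0.612%).

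**Figure D5:**
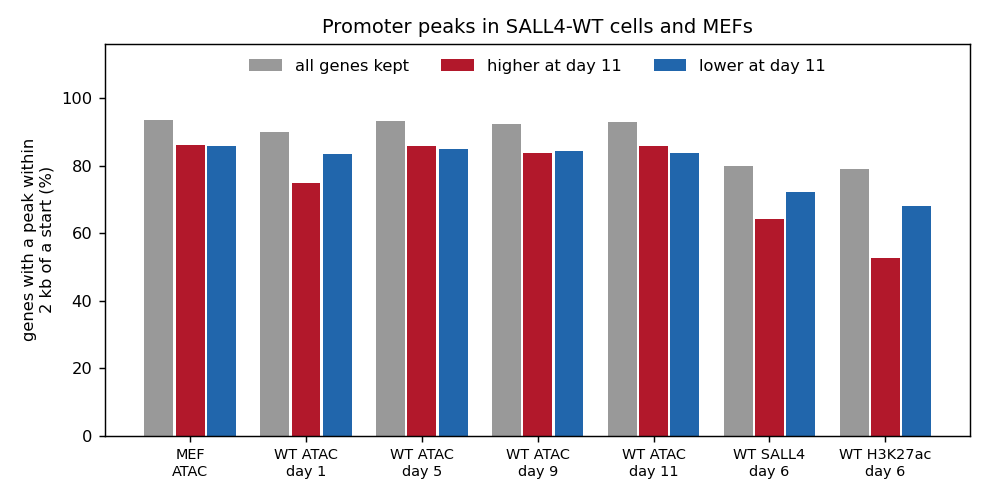
Percent of genes with a peak within 2 kb of an annotated start (y axis) in 7 peak lists (x axis), for all genes kept on day 11 (grey), genes higher (red) and genes lower (blue) on day 11 in SALL4-WT. The higher genes dip to 74.9% with an ATAC peak on day 1, and have the lowest shares with a SALL4 peak (64.1%) and an H3K27ac peak (52.5%).

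At single genes, the peaks and the RNA did not always move together. The highest MACS peak score within 2 kb of the start of Hey1 was 1125.9 in MEFs, 227.1 on day 1, 923.4 on day 5, 880.9 on day 9 and 1140.0 on day 11, while its RNA was highest on day 5. At Cck no ATAC peak was listed on day 1, and the scores were 152.0 in MEFs, 218.6 on day 5, 86.6 on day 9 and 152.8 on day 11. Kng1 had its only ATAC peak on day 11, at 135.5, and a SALL4 peak of 221.9 on day 6, the only day on which SALL4 was mapped. At Ins2 and Pyy no promoter peak of any kind was listed. Among the lower genes, Tagln had an ATAC score of 1493.7 in MEFs and between 67.9 and 175.6 in SALL4-WT cells, its lowest on day 1. Isg15 went from 412.0 in MEFs to 85.9 on day 1, 87.5 on day 5 and 68.4 on day 11, with no ATAC peak listed on day 9 and with a SALL4 peak of 125.5 on day 6. The MEF peak (chr4:156202606-156203707) and the SALL4 peak (chr4:156202247-156204077) lie upstream of the stretch printed above, and so do the peaks scored on days 1, 5 and 11. Thy1 and Col3a1 had an ATAC peak in MEFs only, at 467.4 and 408.7, although their RNA was higher on day 11 than on day 1. The scores were not scaled between lists.

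The changes shared with SALL4-delN12 were mostly increases. Against its own day 1, SALL4-delN12 had 734 genes higher (5.77%) and 331 lower (2.60%) on day 5, 931 (7.25%) and 408 (3.18%) on day 9, and 1318 higher (10.1%) and 573 lower (4.37%) on day 11. On day 11, 578 genes were higher in both courses, which is 39.8% of the SALL4-WT list and 43.9% of the SALL4-delN12 list. Lower in both were 209 genes, 19.1% of the SALL4-WT list and 36.5% of the other. Opposite directions were found for 19 of the genes higher in SALL4-WT and 44 of those lower. Among the latter were Isg15, Oasl2, Usp18, Ifit3, Bst2, Psmb8, H2-K1 and C1qa, and among the former Fn1 and Col6a3.

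Fewer changes were shared with JGES cells over the same 4 days of culture. From day 1 to day 5, 2239 genes were higher (15.6%) and 1188 lower (8.29%) with the 4 factors. Of the 733 genes higher with SALL4 alone, 138 (18.8%, or 6.16% of the JGES list) were among them and 85 were lower in JGES. That 18.8% is near the 15.6% of all genes that were higher in JGES. Of the 474 lower genes, 95 (20%, or 8.00% of the JGES list) were lower in both and 68 were higher in JGES. Alpl was shared, going from 0.806 to 33.3 FPKM in JGES cells, while Masp1 went from 1.77 to 0.342 and Kng2 stayed under 0.5.

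The SALL4-WT day 1 library was far from the day 0 library of the JGES course, which already holds Sall4 at 650.4 FPKM and is therefore no untreated control. The day 0 library may also differ in medium, since infection took place in serum medium before the change to iCD3. Of 13180 genes, 2011 (15.3%) were higher and 1846 (14.0%) lower in SALL4-WT day 1. Isg15 was at 319.9 FPKM in SALL4-WT day 1 and 3.55 in JGES day 0, Ccl2 at 1448 and 147, and Fcer1g at 36.3 and 0.51. Tagln stood the other way, at 144 and 1228. The contractile list summed to 965.0 FPKM in SALL4-WT day 1, 892.3 in SALL4-delN12 day 1, 362.6 in JGES day 1 and 5521.6 in JGES day 0, so its low level on day 1 was not particular to SALL4-WT.

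In the retinoid pathway Cyp26a1, which degrades retinoic acid, was at 0.208, 15.3, 21.1 and 22.3 FPKM, Dhrs3, which reduces retinal, at 10.3, 62.4, 49.4 and 59.8, and Rarb, a retinoic acid receptor, at 2.47, 10.7, 15.1 and 11.9. The list of this pathway was chosen after its values were seen. On day 9, 8 of 14 genes of this list were higher and none lower, and on days 5 and 11 it was 4 higher and 1 lower. Against SALL4-delN12 day 1, 5 of those 8 were past the fold in the same direction and 1 in the opposite one. Lysosomal genes were higher in part. Of 27, a list chosen after its values were seen, 8 were higher on day 11 and none lower, beside 11% and 8.28% of all genes, with Gpnmb at 14.2, 69.3, 185 and 264 FPKM, the protease gene Ctsk at 5.20, 24.0, 55.2 and 57.3, and Ctsb at 474, 1076, 1473 and 1581. Ctsk was at 74.2 in SALL4-delN12 day 1, and its differences from that library were -1.59, -0.42 and -0.37. Embryonic and adult globin genes appeared late, with Hba-x at 0, 0, 1.49 and 11.8 FPKM and Hba-a1 at 0, 0.598, 3.76 and 26.5. Reads of Hba-a1 may be shared with its near copy Hba-a2. With SALL4-delN12, Hba-x reached only 0.188 on day 11 and Hba-a1 88.6.

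Several groups showed little or a mixed response. Of 13 NuRD subunit genes that could be compared, none was past the fold on day 11, and 1 was lower on day 9. Cholesterol synthesis genes were lower on day 11 in 4 of 15, with Fdps at 203, 114, 142 and 64.9 FPKM, and in 9 of 15 with SALL4-delN12, beside 8.28% and 4.37% of all genes. Among FGF-ERK feedback genes 3 of 12 were higher and 2 lower on day 11. Dusp6, an ERK phosphatase, was at 21.5, 70.4, 103 and 55.9, and Dusp5, a nuclear ERK phosphatase, at 26.2, 5.26, 19.3 and 4.59. Of 10 AP-1 genes 1 was higher and 1 lower, namely Fos (26.0, 85.4, 65.7 and 74.0 FPKM) and Fosl1 (45.3, 11.5, 33.8 and 10.5). Of the imprinted growth genes Igf2 was at 358, 107, 107 and 169, and H19 at 450.1, 934, 623 and 1038, but the differences of H19 from SALL4-delN12 day 1 were -0.62, -1.21 and -0.47. Rps18 was at 806, 611 and 426 FPKM on days 1, 5 and 9 and at 57.7 on day 11. It is a ribosomal protein gene with many near-identical pseudogenes, so this value is uncertain.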

How the data were processed

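Bulk mRNA of whole cultures was sequenced as paired reads. Per the submitters' processing notes, reads were trimmed with Trim Galore 0.6.4, aligned to mm10 with HISAT2 2.2.1 and quantified with StringTie 2.2.1, and the authors deposited FPKM values per gene and library. The study's own tool for differences needs reads and was not used. Since FPKM values keep no depth, no count test was run. From the table of 35976 genes, 1461 short RNAs were left out. Differences of log2(FPKM + 1) were computed in Python 3.11.15 with pandas 2.3.3 over genes with an FPKM of 1 or more in either library, and a size of 1 was called. The computation was tested on simulated data. Low FPKM differences are the least precise, since few reads lie behind them.

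The authors deposited peak lists with a MACS 1.4.2 score per peak, a log-scaled p-value by that tool's convention. The lowest score in each list was 50. ATAC-seq lists hold 1 sample each, and Cut&Tag replicates were merged before calling. A promoter peak overlapped 2 kb either side of a RefSeq start on GRCm38.p6, which 24259 of the 34515 genes kept had. Gene symbols were matched to RefSeq for 31044 of 34515 genes.

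Named genes were the 10 largest increases and 10 largest decreases of each day among genes at 5 FPKM or more in either library, unnamed gene models excluded, Sall4, the 12 PrE genes, and list members past the fold on any day with up to 4 defining markers per list. The members and lists were chosen with earlier results of these data known. The lists of lysosomal, complement and kinin, antigen presentation, peptide hormone and retinoid genes and of BMP and WNT inhibitors were chosen after their values were seen. Alternatives covered the pseudocount, the filter on low values, scaling, the size called, the day 1 library used as base, the promoter window and the peaks used.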

Additional observations from a re-analysis of the deposited data

Results flagged for a closer look

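Changes from day 1 to day 11 were opposite in the 2 SALL4 courses for 11 of the genes whose values are given in the text, each past the fold both ways and a part of the 19 and 44 genes counted above, and for 3 lists with at least 5 genes compared and medians 0.5 or more from 0 in both courses. Smaller opposite medians, such as -1.05 and 0.31 for the inflammatory secreted genes, are not counted here. With 1 library per day in each course, these differences between SALL4-WT and SALL4-delN12 were not tested. Among the immune genes, Isg15 changed by -2.42 with SALL4-WT and 1.51 with SALL4-delN12, Oasl2 by -1.52 and 3.64, Usp18 by -1.84 and 2.45, Ifit3 by -1.09 and 2.12, and Bst2 by -1.51 and 1.46. Psmb8 changed by -2.21 and 2.38 and H2-K1 by -2.64 and 1.20. C1qa changed by -1.81 and 1.33. The medians were -1.09 and 1.89 for the interferon-stimulated genes, -1.28 and 0.58 for the antigen presentation genes, and -1.82 and 1.04 for the macrophage genes. The antigen presentation list was chosen after its values were seen. In the matrix the order was turned, with Fn1 at 1.04 and -1.31 and Col6a3 at 1.04 and -1.68. Igf2, a growth factor gene, changed by -1.08 and 1.10.
Levels on day 11 lay closer together than these changes for the interferon-stimulated genes, which summed to 593.9 FPKM with SALL4-WT and 897.3 with SALL4-delN12, against 1650.7 and 290.9 on day 1. For the macrophage genes it was the other way, with 456.0 and 441.7 on day 1 and 199.6 and 1216.7 on day 11.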

How the results depend on the processing

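No paired analysis was possible because each day is 1 library and replicate numbers pair no samples. A pseudocount of 0.1 raised the counts to 1206 higher and 812 lower genes on day 5, 1470 higher on day 9 and 2188 higher on day 11. With an FPKM of 5 or more required, 474, 619 and 868 genes were higher. At a log2 difference of 2, 147 genes were higher and 85 lower on day 5, 220 and 136 on day 9, and 320 and 161 on day 11. Scaling to a common median ratio, dropping the low filter, or taking the mean of both day 1 libraries as base kept all 6 counts within 1.5 times. Scaling kept 125 of 125 list medians and 389 of 390 named gene differences, the exception being Gdf15 on day 11 at -0.98, and the smaller pseudocount 114 and 378.

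With SALL4-delN12 day 1 as base, 100 of 125 list medians kept their side of the fold, and the other 25 follow. They were -1.12 and 0.35 for epithelial genes on days 5 and 11, 1.09, 1.74 and 1.44 for inflammatory genes on days 5, 9 and 11, and 1.26, 0.50 and 1.72 for interferon-stimulated genes on days 5, 9 and 11. They were -0.14, -0.24 and -0.19 for antigen presentation, 0.21 and 0.75 for peptide hormones on days 5 and 9, and 0.88 for retinoid genes on day 9. On days 5, 9 and 11 they were 1.53, 1.59 and 1.06 for BMP targets and 1.07, 1.82 and 1.71 for bone, cartilage and fat genes. For lists with 3 to 5 genes compared they were 1.31 and 1.23 for other endoderm factors on days 9 and 11, 1.10 and 1.22 for pluripotency genes on days 5 and 9, and -1.57 for blood lineage genes on day 5. Of 390 gene differences, 52 that were past the fold had the other sign with this base. The difference was 0.30 for Bst2 and -0.0003 for Cited1 on day 11. It came to 0.18 for Ccl2, -0.077 for Hba-a2 and 0.0042 for Neurl3 on day 9. The values were -1.28 and -1.09 for Cldn3, 1.82 and 0.81 for Ifit1, 1.26 and 0.93 for Irf7, and 0.16 and 0.059 for Zbp1 on days 5 and 9, and on day 11 they were 3.10, 2.60 and 1.65 for the latter 3 genes. The difference was -0.72, -0.77 and -1.37 for Col6a3, -1.59, -0.42 and -0.37 for Ctsk, 2.02, 2.57 and 2.35 for Cxcl1, and 1.02, 0.85 and 1.06 for Cxcl10 on days 5, 9 and 11. It came to 1.31, 0.59 and 2.78 for Ifit3, 2.20, 1.24 and 3.25 for Oasl2, 0.37, 0.054 and 1.09 for Psmb8, and 0.53, 0.043 and 0.81 for Rsad2 on days 5, 9 and 11. The values were 3.12, 2.15 and 2.20 for Sfrp2, -0.15, -0.38 and -0.22 for Thy1, and 1.73, 0.73 and 2.18 for Usp18 on days 5, 9 and 11. The difference was -0.62 and -0.47 for H19, and 0.20 and 1.38 for Isg15 on days 5 and 11. It came to -2.64 and -2.11 for Krt8 on days 9 and 11. A further 62 of the 390 differences crossed the fold with this base, and 276 kept their side of it. Of those 62, some fell within the fold, such as Gpnmb (0.27), Trf (0.27) and C1ra (0.58) on day 5. On day 9 Hba-a1 (0.17) and Cdh1 (0.46) did so too. Others came to lie past the fold, such as Fn1 on days 5 and 9 (1.79 and 2.03). The cause was not tested.

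Promoter shares depended on the peaks used. With a window of 500 bases, a SALL4 peak was at 75.2% of all genes kept, 57.4% of higher and 66.0% of lower genes, and an H3K27ac peak at 77.4% of all genes. With the higher-scoring part of each list, the SALL4 shares were 58.6%, 40.9% and 48.1% and the H3K27ac shares 61.8%, 32.8% and 48.1%, in the same order of groups. FPKM values without depth, 1 library per day and a base library that differs from its counterpart limit every value here.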

Other observations

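Many markers of other lineages were below 1 FPKM in the SALL4-WT libraries, though only 6 of 14 bone, cartilage and fat genes were on day 11. The counts on day 11 stand beside 11% of all genes higher and 8.28% lower. Of 10 other endoderm transcription factors, 8 were below 1 FPKM on day 1 and 6 on day 11. Of the 4 that could be compared 2 were higher and 1 lower, and some passed the filter only through their day 11 level. Trophoblast genes were higher in 3 of 6 and lower in none on day 11, and keratinocyte genes higher in 3 of 8 and lower in 1. In both lists, too, some members passed the filter only through day 11. Of the 3 trophoblast genes, 1 was also higher against SALL4-delN12 day 1 and 1 was lower. Endothelial genes were higher in none of 6 on any day and lower in 3 on day 11, neural genes lower in 2 of 4, and muscle genes past the fold in none of 6 on day 11. Bone, cartilage and fat genes went both ways, with 4 of 10 higher and 3 lower. All 4 higher genes but only 1 of the 3 lower ones were also past the fold against SALL4-delN12 day 1, where 5 of 8 genes compared were higher and 2 lower with a median of 1.71. In this list was Lpl, the lipase that releases fatty acids from lipoproteins, at 1.48, 5.50, 8.67 and 17.9 FPKM on days 1, 5, 9 and 11.

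HOX genes, which mark position along the body and limbs, were mostly within the fold. Of 12 posterior HOX and limb genes, 1 was higher and 1 lower on each day, and of 13 anterior HOX genes none was higher and 2 were lower on day 11. Hoxa13, the factor of the most distal limb, was the higher one, at 1.82, 9.95, 8.72 and 9.54 FPKM, and at 1.51 and 4.99 on days 1 and 11 of the SALL4-delN12 course. DNA methylation enzymes had no member past the fold on any day among up to 5 that could be compared. WNT target genes were higher in 2 of 11 and lower in 1 on day 11, and neither of the 2 was past the fold against SALL4-delN12 day 1. On the same day, beside 11% higher and 8.28% lower of all genes, glycolysis and hypoxia genes were higher in 2 of 13 and lower in 3, and amino acid and ER stress genes higher in 1 of 14 and lower in 1.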
